A study of Homo sapiens with 24 samples.

Results

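The STAT transcription factors and the feedback genes they switch on were followed in cutaneous T cell lymphoma cells depleted of PRKCQ, the gene for protein kinase C theta. The group holds 10 genes, chosen by symbol out of the 58780 genes listed: STAT3, STAT4, STAT5A, STAT5B, STAT6, SOCS1, SOCS2, SOCS3, CISH and PIM1. All 10 were tested in TPA and 9 in DMSO, where SOCS1 was not analysed. RNA was sequenced from 24 libraries of 2 human lines, MyLa, labelled as from mycosis fungoides, and HuT 78, labelled as from Sézary syndrome. Each line carried a non-targeting control hairpin (NTC) or a hairpin against PRKCQ (shPRKCQ) and was given the vehicle DMSO or the phorbol ester TPA, which activates protein kinase C directly, with 3 libraries in each of the 8 groups. Knockdown was induced with doxycycline at 1 µg/ml over a minimum of 72 h, followed by 24 h of vehicle or of TPA at 10 ng/ml. Doxycycline is stated for the knockdown only; if NTC cells had none, drug and hairpin cannot be told apart. The labels leave the number of hairpins and clones unstated.

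STAT proteins wait in the cytoplasm until a JAK kinase bound to a cytokine receptor phosphorylates them, and then act as paired DNA-binding factors in the nucleus. SOCS proteins and CISH are made in response and shut the receptor or the kinase down again, which closes a negative feedback loop, while PIM1 is a serine/threonine kinase induced by the same factors that favours survival. In T cells STAT5A and STAT5B serve interleukin-2, STAT6 serves interleukin-4, STAT4 serves interleukin-12 and STAT3 serves interleukins 6, 10 and 21; in cutaneous T cell lymphoma lines STAT3 and STAT5 are known for being active without added cytokine.

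Each comparison set 6 shPRKCQ against 6 NTC libraries of both lines together, so a value does not show whether the lines differ. Values per library were not analysed here, depth is unknown, and each gene is described by 1 log2 fold change, 1 p-value and 1 adjusted p-value per treatment from the authors' deposited tables. A negative fold change was read as lower in shPRKCQ cells because PRKCQ, the targeted gene, was at -2.11 in DMSO and -2.08 in TPA per the authors' deposited tables, or 23.1% and 23.7% of the NTC level. An approximate 95% interval was computed for each gene from a standard error implied by its fold change and p-value. Over all genes tested, fold change over that standard error had a robust (median-based) SD of 0.753 in DMSO and 0.84 in TPA. Both are below the 1 expected without any change, so the intervals may be too wide. If the TPA fold changes were shrunken towards 0, the TPA standard errors and intervals would be narrowed with them, which was not tested. In bulk RNA a lower share of cells expressing a gene and less RNA per cell cannot be told apart. The tables give no expression level, so the labelled cell type could not be checked by its markers' abundance. Of 11 T cell markers, 6 were tested in DMSO, 3 of them positive and the median on the log2 scale 0.068, and 11 in TPA, 10 of them positive and the median 0.20. In TPA CD5, a T cell surface receptor, was at 0.56 (p = 0.0167) and CD7 at 0.69 (p = 0.0647) per the authors' deposited table. Of 11 B cell, myeloid, epithelial or stromal markers tested in TPA, 3 had an unadjusted p under 0.05, against 3.99% of all genes. They were CD79B at -1.10, PDGFRB at -1.02 and KRT5 at 0.77 per the authors' deposited table. The lists were mixed in sign: 3 of 4 B cell, 2 of 3 myeloid and 2 of 4 epithelial or stromal markers were positive. In DMSO 1 marker of each of these lists was tested, and each was positive. No marker passed after adjustment, and their part in the values below was not tested.

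No STAT or feedback gene passed the authors' adjusted p of 0.05 in either treatment. DESeq2 is the one testing tool their processing notes list. The count was 0 of 9 genes in DMSO, where 0.108% of all 13007 genes tested passed, and 0 of 10 in TPA, where 0.113% of 19417 passed. At an unadjusted p under 0.05 it was 0 of 9 in DMSO, against 3.04% of all genes, and 3 of 10 in TPA, against 3.99%. Those 3 were SOCS2, SOCS1 and STAT4, and all had positive values; 2.05% of all genes were positive at that p in TPA.

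**Figure D1:**
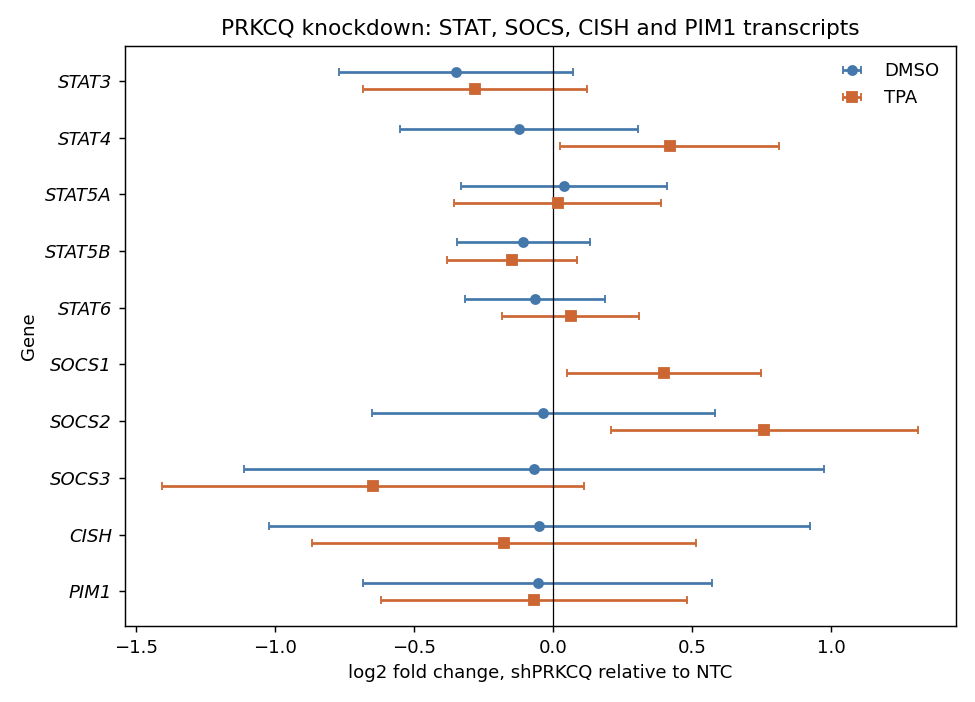
Log2 fold change in shPRKCQ relative to NTC cells (horizontal axis) for each gene (vertical axis), circles for DMSO and squares for TPA, with approximate 95% intervals as bars. Intervals for SOCS1, SOCS2 and STAT4 in TPA lie above 0 before adjustment, and those of SOCS3 and CISH in DMSO are the widest.

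Among the transcription factors, STAT3 had the most negative value in DMSO and kept its sign in TPA. It was at -0.35 in DMSO (p = 0.105) and -0.28 in TPA (p = 0.172) per the authors' deposited tables. These are 78.5% and 82.3% of the NTC level, with intervals of 58.6% to 105% and 62.3% to 109%. Both intervals include no change. STAT3 (ENSG00000168610.14) lies on chromosome 17, 42313324 to 42388568, minus strand, GRCh38.

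STAT5B and STAT6 were measured most tightly. STAT5B, which transmits interleukin-2 signals together with STAT5A, was at -0.11 in DMSO and -0.15 in TPA per the authors' deposited tables (p = 0.383 and 0.221), and its intervals ran from 78.8% to 110% and from 76.9% to 106% of the NTC level. STAT6, the factor of interleukin-4 and interleukin-13, was at -0.06 and 0.06 per the authors' deposited tables (p = 0.624 and 0.611), with intervals of 80.4% to 114% and 88.1% to 124%. STAT5A was closest to 0 of the 5 factors, at 0.04 and 0.02 per the authors' deposited tables (p = 0.83 and 0.931). A call would have needed a change of 1.41-fold for STAT5B and 1.43-fold for STAT6 in DMSO, given their standard errors and the weakest call in that table.

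STAT5A and STAT5B are neighbouring genes with closely related sequences. Of the 50-base windows in their GENCODE coding transcripts, 507 were identical between them, which is 10.3% of the 4933 windows of STAT5A and 9.88% of the 5133 of STAT5B. Reads from those stretches could be assigned to either gene, so the split between the pair is uncertain to that extent. No other pair among the 10 genes shared a window.

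STAT4, the interleukin-12 factor that drives interferon gamma in type 1 helper cells, had values of opposite sign in the 2 treatments. It was at -0.12 in DMSO (p = 0.575) and 0.42 in TPA (p = 0.0364, adjusted p = 0.99998) per the authors' deposited tables, or 91.9% and 134% of the NTC level. The TPA interval ran from 102% to 176%, and the DMSO interval from 68.3% to 124%. In DMSO 35.7% of the genes tested had a larger absolute value.

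SOCS2, a feedback inhibitor best known for restraining growth hormone and STAT5 signalling, had the smallest p of the group. It was at -0.04 in DMSO (p = 0.911) and 0.76 in TPA (p = 0.00691, adjusted p = 0.676) per the authors' deposited tables. In TPA this is 169% of the NTC level, with an interval of 116% to 248%, and 1.75% of the genes tested had a larger absolute value. It ranked 198 of 19417 by p-value there. A call in TPA would have needed a 2.20-fold change at its standard error. SOCS2 (ENSG00000120833.13) lies on chromosome 12, 93569814 to 93583487, plus strand, and overlaps SOCS2-AS1 on the minus strand. That antisense gene was at 0.19 in DMSO and 0.31 in TPA per the authors' deposited tables (p = 0.619 and 0.347). Libraries were strand-specific, but the use of strand in counting is not given in the sources used here, so reads of the 2 genes may not be fully separated.

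SOCS1, which binds JAK kinases and blocks their activity, was also positive in TPA. It was at 0.40 per the authors' deposited table (p = 0.0252, adjusted p = 0.99998), or 132% of the NTC level with an interval of 103% to 168%. SOCS1 (chromosome 16, 11254405 to 11256200, minus strand) lies inside RMI2, a genome stability gene on the plus strand, which was at -0.09 in TPA per the authors' deposited table (p = 0.465).

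SOCS3, the inhibitor induced by STAT3 that blocks receptors of the interleukin-6 family, had the most negative value of the group in TPA. It was at -0.07 in DMSO (p = 0.898) and -0.65 in TPA (p = 0.094) per the authors' deposited tables. In TPA this is 63.9% of the NTC level, with an interval of 37.8% to 108%. The DMSO interval was wider, from 46.3% to 196%. Its implied standard error in DMSO was 0.531, larger than that of 98.1% of the genes tested, and a call would have needed a 4.44-fold change. In TPA it was 0.727 times as large. That ratio was compared over genes with a z-value over 0.2 in size in both treatments. SOCS3 itself was not among them, as its z-value in DMSO was smaller. The median ratio was 0.75 over the 420 of these genes with a standard error above 0.4 in DMSO, and 0.97 over all of them. Where the DMSO standard error was at most 0.2 it was 0.977. Picking genes by a wide DMSO standard error partly builds in a low ratio. The implied standard error is computed from the fold change, so shrunken TPA fold changes would also lower the ratio, which was not tested. In TPA the 3 SOCS genes thus carried values of both signs, from -0.65 to 0.76 per the authors' deposited table.

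CISH, the inhibitor of interleukin-2 receptor signalling that is a classical STAT5 target, was close to 0 in DMSO but imprecise. Its values were -0.05 in DMSO and -0.17 in TPA per the authors' deposited tables (p = 0.921 and 0.621), with intervals of 49.2% to 190% and 54.9% to 143% of the NTC level. The gene (ENSG00000114737.15) lies on chromosome 3, 50606490 to 50611831, minus strand. Its promoter window is shown because it is unusual in holding repeated copies of the STAT consensus TTCNNNGAA, which reads the same on both strands. RefSeq windows (GRCh38.p14) run from 250 bases before a transcription start to 50 after it, and 7.66% of 35116 such windows hold a match, but only 7 hold 4, the most found. The CISH window is one of these 7. The matches are in capitals, written 5′ to 3′ on the minus strand, and begin at -241, -230, -129 and -112 bases from the RefSeq start.
CISH far pair, chr3:50611996-50612015: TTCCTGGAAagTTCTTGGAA
CISH near pair, chr3:50611832-50611907: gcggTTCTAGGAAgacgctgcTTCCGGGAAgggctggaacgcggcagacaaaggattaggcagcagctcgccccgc
The far pair falls in an annotated exon of MAPKAPK3, a kinase gene that starts on the opposite strand and overlaps CISH; it was at -0.08 in DMSO and -0.14 in TPA per the authors' deposited tables. The near pair lies between the exons annotated on either side.

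The other members' windows held no TTCNNNGAA. SOCS2 had no entry. For SOCS3, STAT5B and STAT6 the bases just before the outermost gene start given by GENCODE lie outside these windows and were not searched. A variant with a 4-base spacer preferred by STAT6, TTCNNNNGAA, was present in 6.44% of all windows and in 1 of the 3 windows of STAT5A. The AP-1 consensus TGANTCA, a site for factors downstream of protein kinase C, was present in 7.71% of windows and in 1 of the 2 of STAT4. Both motifs also read the same on both strands. These are matches of letters in 300 bases, and distant elements were not searched. Over the genes tested that have a window with TTCNNNGAA, 761 in DMSO and 1006 in TPA, the median log2 fold change was 0.0082 and 0.0051, and 3.68% and 4.87% had an unadjusted p under 0.05. The same shares were 2.95% and 4.32% among genes without a match, and 0 genes with a match passed the adjusted threshold in either treatment, against 9 of 8340 genes without one in DMSO and 17 of 10720 in TPA.

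PIM1, a kinase on chromosome 6 (37170203 to 37175426, plus strand), was at -0.06 in DMSO and -0.07 in TPA per the authors' deposited tables (p = 0.863 and 0.809). Its intervals were 62.3% to 149% and 65.2% to 140% of the NTC level. The related kinase PIM3 was at 0.40 in DMSO (p = 0.033, adjusted p = 0.9999) and 0.06 in TPA (p = 0.736), and PIM2 at -0.28 and -0.08 (p = 0.23 and 0.721), per the authors' deposited tables.

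Within the spread of all genes tested in each treatment, the group lay close to the middle in DMSO and wider in TPA. The genes tested were not the same, 13007 in DMSO and 19417 in TPA, and SOCS1 was tested in TPA only. In DMSO 8 of the 9 genes were negative, against 6203 of all 13007 genes tested. Their median was -0.063 where the median of all genes was 0.0075. The values of the 9 genes were small: the median absolute value was 0.063, against 0.088 over all genes tested. In TPA 5 were positive and 5 negative, with a median of -0.026 against 0.011, and the median absolute value was 0.228 against 0.115. The median implied standard errors of the group and of all genes were 0.218 and 0.172 in DMSO and 0.203 and 0.22 in TPA.

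**Figure D2:**
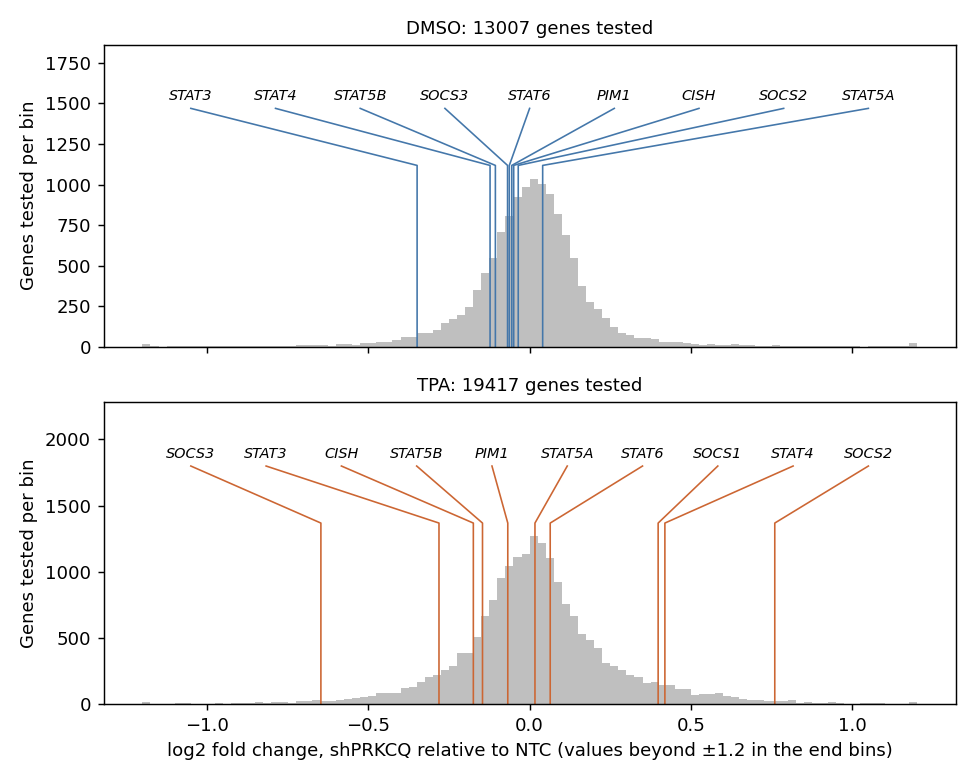
Number of genes tested per bin (vertical axis) by log2 fold change in shPRKCQ relative to NTC cells (horizontal axis), DMSO above and TPA below, with each STAT or feedback gene marked by a line to its label. In DMSO all but STAT3 sit within the bulk of genes, and in TPA SOCS3 at -0.65 and SOCS2 at 0.76 sit in its outer parts.

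Whether the knockdown effect differed between TPA and DMSO was tested from the 2 fold changes and their implied standard errors, with Benjamini-Hochberg adjustment over 13007 genes. None of the 9 genes passed, nor did any have an unadjusted p under 0.05, which 57 genes or 0.438% of all had; over all genes 0 passed after adjustment. The difference was largest for SOCS2, at 0.80 on the log2 scale (TPA minus DMSO), with an interval of -0.03 to 1.62 (adjusted p = 0.99996). STAT4 had a difference of 0.54 and an interval of -0.04 to 1.12 (adjusted p = 0.99996). For SOCS3 the difference was -0.58, from -1.87 to 0.71 (adjusted p = 0.99996). Those of STAT3, STAT5A, STAT5B and PIM1 were between -0.04 and 0.07, and the tightest interval was that of STAT5B, from -0.37 to 0.29. Over all genes the z-values of this test had a robust SD of 0.579, below the 1 that it assumes. Its p-values and intervals may thus be conservative, but how well they are calibrated on these data was not tested. The test takes the tables as independent and on 1 scale. They share no library, but cultures could be related, and the TPA fold changes may be shrunken towards 0.

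**Figure D3:**
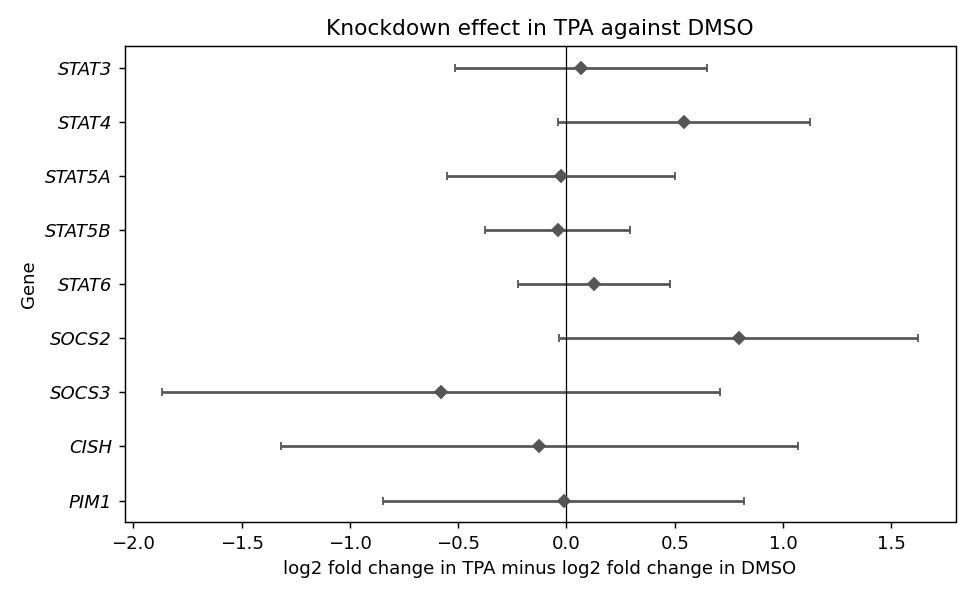
Log2 fold change in TPA minus that in DMSO (horizontal axis) for the 9 genes with both values (vertical axis), with approximate 95% intervals as bars. All 9 intervals include 0, and those of SOCS2 and STAT4 reach it only at their lower ends.

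Upstream of the STATs, the JAK kinases gave small values. In the authors' deposited tables JAK1 was at 0.06 in DMSO and 0.21 in TPA, JAK2 at 0.09 and -0.11, JAK3, the partner of the common gamma chain, at -0.05 and 0.04, and TYK2 at 0.10 and 0.08. Their lowest p was 0.299. STAT2, which carries type I interferon signals, was at -0.0027 in DMSO and 0.08 in TPA per the authors' deposited tables. Of SOCS genes outside the group, SOCS5 had the largest value, 0.20 in TPA (p = 0.179), while SOCS4, SOCS7 and, in TPA, SOCS6 lay between -0.11 and -0.01 per the authors' deposited tables. Of 11 other negative regulators, the PIAS proteins and tyrosine phosphatases among them, 10 were tested in DMSO and 11 in TPA, and 0 passed the adjusted or the unadjusted threshold.

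Larger values stood among the receptors and ligands, none past the authors' adjusted threshold. The ligands were measured less tightly than most genes. Median implied standard errors in DMSO and TPA were 0.54 and 0.348 for ligands, 0.218 and 0.223 for receptors, and 0.172 and 0.22 over all genes. Of 24 JAK-coupled receptor chains, 19 were tested in DMSO and 22 in TPA. IL6R, the interleukin-6 receptor that leads to STAT3, was at 1.62 in DMSO (p = 0.000217, adjusted p = 0.123) and 0.14 in TPA (p = 0.692) per the authors' deposited tables, and the difference of -1.48 had an interval of -2.58 to -0.39 (p = 0.00805, adjusted p = 0.99996). IL2RB, the receptor chain that recruits STAT5, was at -0.83 in DMSO and -0.32 in TPA per the authors' deposited tables (p = 0.000898 and 0.17; adjusted p = 0.272 and 0.99998). IL23R, which signals through STAT3, was at -0.89 in TPA per the authors' deposited table (p = 0.0159). Of 16 ligands, 5 were tested in DMSO, 4 of them positive, and 13 in TPA, 5 positive and 8 negative. In TPA the unadjusted threshold was passed by IL10, an anti-inflammatory cytokine, at -1.07 (adjusted p = 0.234), and IFNG, interferon gamma, at -1.59 (adjusted p = 0.43), per the authors' deposited table. The most positive were IL5, which acts on eosinophils, at 0.73 (p = 0.127) and IL2, the T cell growth factor, at 0.50 (p = 0.0967), per the authors' deposited table.

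Lists of textbook STAT targets also held 0 genes past the adjusted threshold. STAT5 targets had medians of -0.096 in DMSO, over 7 genes, and -0.094 in TPA, over 8; BCL2, an inhibitor of apoptosis, was at -0.75 in DMSO (p = 0.0106, adjusted p = 0.9999) and 0.11 in TPA (p = 0.684) per the authors' deposited tables. STAT3 targets had medians of -0.02 over 9 genes and -0.090 over 12. BATF, an AP-1 factor of that list, was at -0.13 in DMSO and -0.35 in TPA per the authors' deposited tables (p = 0.417 and 0.0211). The 6 STAT6 targets tested in TPA were all positive, from 0.0032 to 0.61 with a median of 0.29, none with an unadjusted p under 0.05. Of all genes tested there 53.0% were positive, and of the T cell markers 10 of 11; whether the targets differ from either was not tested. In DMSO 3 STAT6 targets were tested, 2 of them positive, with a median of 0.021. STAT4 targets had a median of -0.36 in DMSO, over 2 genes, and of 0.030 in TPA, over 5 that include IFNG. Medians over all genes tested were 0.0075 and 0.011, and some genes stand in more than 1 list.

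**Figure D4:**
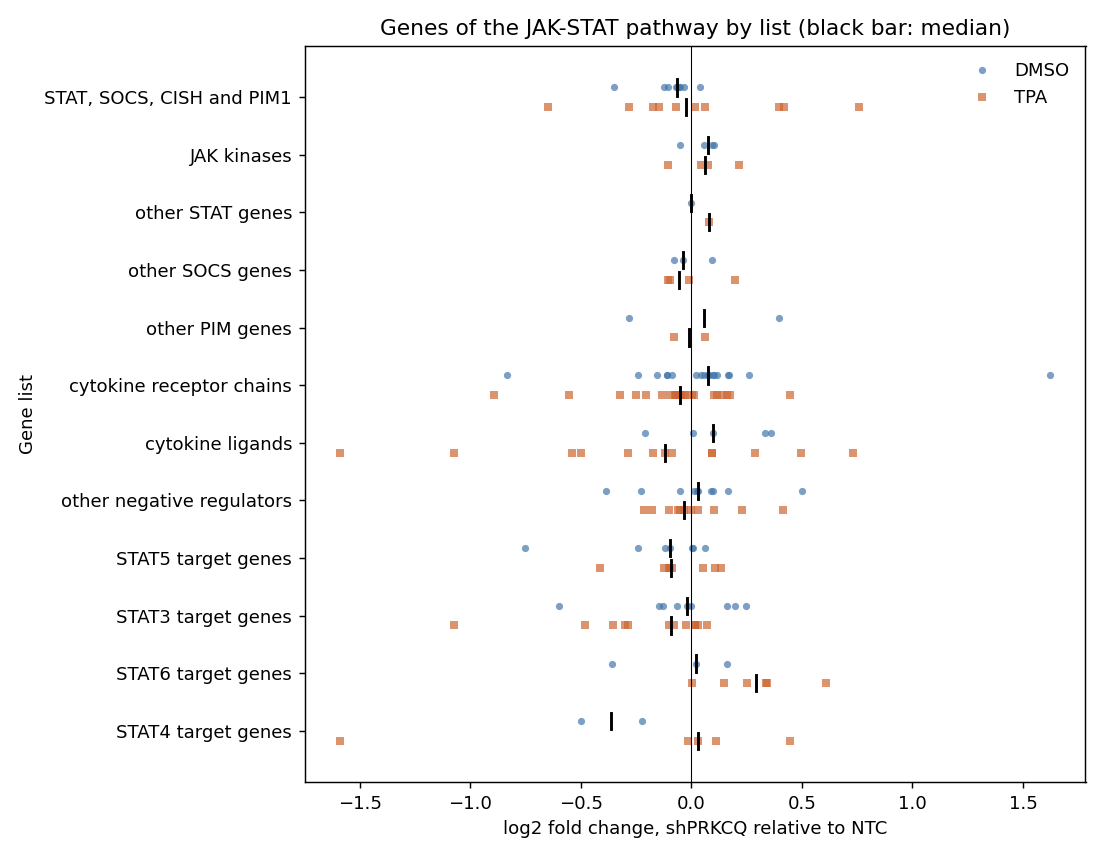
Log2 fold change in shPRKCQ relative to NTC cells (horizontal axis) of the tested genes of each list (vertical axis), circles for DMSO and squares for TPA, with black bars at the medians. IL6R at 1.62 in DMSO and IFNG at -1.59 in TPA are the outermost points, and the 6 STAT6 targets in TPA lie at or above 0.

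Genes next to the STAT and feedback genes were also read. On chromosome 17, STAT5B occupies 42199168 to 42276707 on the minus strand and STAT5A 42287547 to 42311943 on the plus strand, and SOCS3 lies on the same chromosome at 78356778 to 78360077, minus strand. There GHDC, STAT5B, STAT5A, STAT3 and CAVIN1 follow each other, with 10839 bases between STAT5B and STAT5A and 1380 between STAT5A and STAT3. GHDC was at -0.50 in DMSO (p = 0.0279) and -0.23 in TPA (p = 0.288), and CAVIN1, a caveola coat protein, at -0.76 in TPA (p = 0.0554), per the authors' deposited tables. STAT4 lies on chromosome 2, 191029576 to 191151596, minus strand. Of the 16 protein-coding genes outside the group that flank a member without overlapping it, the nearest on each side, 11 were tested in DMSO and 14 in TPA. None passed after adjustment, and an unadjusted p under 0.05 was found for 1 in DMSO, GHDC, and 0 in TPA. The 4 protein-coding genes that overlap a member, NAB2, LRP1, RMI2 and MAPKAPK3, were tested in both treatments, and 0 had an unadjusted p under 0.05 in either. STAT6 (chromosome 12, 57095408 to 57132139, minus strand) overlaps NAB2 and LRP1 on the opposite strand, which were at -0.08 and 0.08 in DMSO and 0.05 and -0.07 in TPA per the authors' deposited tables.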

How the data were processed

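Per the labels' protocols, strand-specific poly(A) libraries with unique molecular identifiers were sequenced. Named without a role in the submitters' processing notes are GRCh38, DESeq2 1.18.1, RSEM 1.3.0 and STAR 2.5.3a; the sources used here do not give the model, its covariates or any shrinkage. Per the file headers, the values the authors deposited for every gene and treatment are log2 fold changes with raw and adjusted p-values. The adjusted p was checked against a Benjamini-Hochberg adjustment, which differed by a relative 0.00451 at most. In TPA 2912 of 34085 fold changes share 0.000537, so they may be shrunken. No count was used, so the p-values rest on the authors' fits alone.

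From the deposited values a z-value, an implied standard error (fold change over z) and an interval were computed. Python 3.11.15 was used with numpy 2.4.6, scipy 1.17.1 and pandas 2.3.3. The difference test was tried on simulated data whose z-values were spread as the test assumes, which the real ones were not. The simulation therefore could not show how well the test is calibrated on these data. All 13025 identifiers in DMSO and 58780 in TPA matched GENCODE release 29, and promoter windows of 9 members were found by symbol in RefSeq (GRCh38.p14). Named beside the members were all JAK, other STAT, SOCS and PIM genes, listed genes with an unadjusted p under 0.05 in either treatment, and nearest neighbours; 1 of these is not reported here. Members and lists were chosen with earlier results of these data known. The labels call the replicates independent.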

Additional observations from a re-analysis of the deposited data

How the results depend on the processing

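No paired analysis was possible because values per library were not analysed here; leaving out libraries and other normalizations were not run for the same reason, and what depth limits could not be assessed. The count of STAT and feedback genes past the threshold stayed at 0 in DMSO, in TPA and for the difference under each threshold, minimum size, adjustment and scaling tried, with 1 exception in TPA. Rescaling p-values by the robust SD of z over all 34024 TPA genes with a p-value, an alternative chosen after seeing the data, gave 4 of the 10: SOCS2, SOCS1 and STAT4 higher and SOCS3 lower (adjusted p = 1.48e-05, 0.000701, 0.00184 and 0.0206). Over the other settings their adjusted p ran from 0.127, 0.348, 0.417 and 0.659, with p-values rescaled over genes with an adjusted p, up to 0.99999. That SD was 0.505, against 0.84 over genes with an adjusted p, and the setting called 2194 genes in all. It includes 14607 genes that the authors gave no adjusted p.

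Over all genes, 14 calls in DMSO became 3 when a log2 change of at least 1 in size was also asked for and 109 with rescaled p-values. The 22 calls in TPA became 39 at an adjusted p under 0.1, 14 with that minimum size, 8 when adjusted over the genes of both tables and 113 with p-values rescaled over genes with an adjusted p. Rescaling took the difference test from 0 to 24 genes, none of them a STAT or feedback gene; SOCS2 had the lowest adjusted p of the group there, 0.211. On the difference of z-values that of PRKCQ was -0.31 in place of 0.04, far from the threshold on both scales. With p-values rescaled over genes with an adjusted p, 3 receptor or ligand genes named above passed. They were IL6R and IL2RB in DMSO (adjusted p = 0.00052 and 0.00317) and IL10 in TPA (adjusted p = 0.0202).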
